A study of Mus musculus with 18 samples.

Results

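The proteasome is described here through the 49 genes of 15329 listed whose mouse symbols begin with *Psma*, *Psmb*, *Psmc*, *Psmd*, *Psme*, *Psmf* or *Psmg* followed by a number. The rule uses the symbols and no measured value, although the set was picked with earlier results of these data known. All 49 were tested, since no filter on low values was applied. They fall into 8 *Psma* genes of the alpha ring, 7 constitutive *Psmb* genes of the beta ring, 3 *Psmb* genes of the immunoproteasome, 6 *Psmc* ATPases, 11 *Psmd* subunits without ATPase activity, 3 *Psmd* genes for assembly chaperones of the 19S particle, 5 genes for activators and the inhibitor-like protein PI31, and 4 *Psmg* assembly chaperones of the 20S core. The other 2 are no subunits: *Psmc3ip* encodes a partner protein used in meiotic recombination, and *Psme2b* is a near-copy of *Psme2*, so reads could be split between the copies and its values are uncertain.

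RNA from the hippocampus of 18 mice was sequenced as poly(A)-selected libraries, 1 mouse per library and 3 mice in each of 6 groups. All mice were C57BL/6J and 8 to 10 weeks old. WT mice and mice with a knockout of *Ccny*, the gene of the synaptic protein cyclin Y, were compared in 3 states. Untrained mice are called WT_Basal and KO_Basal. Mice of WT_OL and KO_OL had learned the place of a hidden platform in the Morris water maze, called original learning, and those of WT_RL and KO_RL had then also learned a new place of the platform, called reversal learning. The knockout is the only genetic change that the labels give, it is carried by all 9 KO mice, and how the allele was made is not given in the sources used here.

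The 26S proteasome degrades proteins that carry chains of ubiquitin. Its 20S core is a barrel of stacked rings, with alpha rings at the ends that gate the entry and beta rings inside that hold the proteolytic sites, and its 19S cap recognises the ubiquitin chain, removes it, unfolds the substrate with a ring of ATPases and feeds it into the core. In neurons, proteasomes are found in dendrites and spines, and protein breakdown by this route is known to take part in synaptic plasticity and in the formation and updating of memory.

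The listed genes held 29248557 to 37915576 reads in each library. *Ccny* was at 107 to 158 CPM (read counts that the authors scaled to a common library size) in the 9 WT mice and at 74.0 to 95.8 CPM in the 9 KO mice, without overlap, and the KO level was 0.595, 0.595 and 0.632 times the WT level in Basal, OL and RL mice (limma adjusted p = 0.0121, 0.0180 and 0.0821), so most *Ccny* reads remained in the KO libraries. All 12 listed markers of hippocampal principal neurons, such as *Prox1* and *Neurod6*, were detected. WT_OL mice 2 and 3 and WT_RL mice 1 and 3 stood farthest from their group means, with an SD of the deviations over genes of 0.201 to 0.255 on the log2 scale against 0.0993 to 0.172 in the other 14 mice. Changes are differences of group means of log2(CPM + 1) with their standard error (SE), tested with limma across all genes and adjusted by the Benjamini-Hochberg method, and an adjusted p under 0.05 is called a change. In bulk tissue, fewer cells of a type and less RNA per cell cannot be told apart. P-values measure the spread between these mice, which may hold technical differences too.

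The upstream sequences are shown of 6 members that fell or rose in KO_RL against KO_Basal. They were taken in order of p, up to a limit in each direction. Each needed a single promoter entry, a start within 20 bases of the GENCODE start and at most 20 exon bases in the window. *Psmc6*, *Psma4* and *Psma2*, which had smaller p-values than most of the 6, did not meet these conditions. The letters come from the RefSeq promoter table on GRCm38.p6, in which 41 of the 49 members have an entry, and *Psma8*, *Psmb1*, *Psmb2*, *Psmb7*, *Psmc3*, *Psmd3*, *Psmd7* and *Psmg2* have none. Each line gives the 250 bases just before the annotated start, 5′ to 3′ on the strand of the gene. Capitals mark CCAAT, the letters that the factor NF-Y binds, or TGACNNNGC, the core of the element that NRF1, the product of *Nfe2l1*, binds, each searched on both strands. *Psma1* (chr7:114276117-114276366, minus strand), *Psma3* (chr12:70974373-70974622, plus strand), *Psmb6* (chr11:70525107-70525356, plus strand) and *Psmd14* (chr2:61711444-61711693, plus strand) fell, and *Psmd2* (chr16:20651402-20651651, plus strand) and *Psmd11* (chr11:80428365-80428614, plus strand) rose.
Psma1: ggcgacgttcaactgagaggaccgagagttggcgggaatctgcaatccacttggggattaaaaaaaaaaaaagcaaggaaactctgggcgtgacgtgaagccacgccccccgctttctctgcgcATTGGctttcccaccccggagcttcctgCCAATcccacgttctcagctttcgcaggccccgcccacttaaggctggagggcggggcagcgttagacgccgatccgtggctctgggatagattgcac
Psma3: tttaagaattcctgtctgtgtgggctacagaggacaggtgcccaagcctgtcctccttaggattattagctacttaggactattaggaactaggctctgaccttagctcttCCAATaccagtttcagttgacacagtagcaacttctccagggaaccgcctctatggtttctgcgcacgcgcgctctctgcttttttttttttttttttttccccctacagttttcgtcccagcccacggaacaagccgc
Psmb6: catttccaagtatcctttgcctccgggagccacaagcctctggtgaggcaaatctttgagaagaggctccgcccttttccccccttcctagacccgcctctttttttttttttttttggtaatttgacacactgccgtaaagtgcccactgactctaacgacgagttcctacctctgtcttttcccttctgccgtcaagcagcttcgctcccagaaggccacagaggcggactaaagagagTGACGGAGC
Psmd14: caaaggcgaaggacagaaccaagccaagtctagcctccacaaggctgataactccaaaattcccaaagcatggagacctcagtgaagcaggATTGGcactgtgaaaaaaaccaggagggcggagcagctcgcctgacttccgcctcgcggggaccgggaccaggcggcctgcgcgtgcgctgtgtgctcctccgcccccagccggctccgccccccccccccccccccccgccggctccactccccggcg
Psmd2: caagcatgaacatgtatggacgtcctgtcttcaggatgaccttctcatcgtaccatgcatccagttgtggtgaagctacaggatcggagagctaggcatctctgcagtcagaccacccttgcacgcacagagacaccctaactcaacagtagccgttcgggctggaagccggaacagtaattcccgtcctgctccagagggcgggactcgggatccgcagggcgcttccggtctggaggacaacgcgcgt
Psmd11: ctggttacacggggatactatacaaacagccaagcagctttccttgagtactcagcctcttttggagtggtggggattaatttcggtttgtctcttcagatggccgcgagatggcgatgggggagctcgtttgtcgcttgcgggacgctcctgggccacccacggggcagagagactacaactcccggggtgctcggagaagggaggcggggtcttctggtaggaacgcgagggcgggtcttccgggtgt

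CCAAT stood in *Psma1* on both strands, in *Psma3* and in *Psmd14*. TGACNNNGC stood in *Psmb6*, where it ended at the annotated start. Neither was present in these windows of *Psmd2* and *Psmd11*. Over all members with an entry, 14 of 41 (34.15%) held CCAAT against 34.46% of 27025 genes, and 5 of 41 (12.2%) held TGACNNNGC against 10.15%. Both shares were close to those of all genes. The members with TGACNNNGC were *Psmb5*, *Psmb6*, *Psmc6*, *Psmd9* and *Psmd12*.

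The constitutive genes of the 20S core and the 19S particle were expressed in all mice. Per kilobase of the longest annotated transcript, the 31 genes of the constitutive particle without *Psma8* had a median level of 66.2 CPM per kb over the 18 mice, and the highest and the lowest differed 6.46-fold. *Psmb6*, which carries the caspase-like site, was highest at 126 CPM per kb, and *Psmd11*, a scaffold subunit of the lid, was lowest at 19.5 CPM per kb. *Psma6* was highest in the alpha ring at 97.8 CPM per kb, *Psmc5* was highest among the ATPases at 116 CPM per kb with *Psmc6* lowest at 42.2 CPM per kb, and *Psmd2*, a scaffold of the base, led the non-ATPase subunits at 85.4 CPM per kb. *Psmb5*, which carries the chymotrypsin-like site, was the lowest constitutive beta gene at 64.6 CPM per kb. The assembly chaperones were below all 31 of these genes. The chaperones of the 19S particle lay at 11.7 (*Psmd9*) to 13.1 (*Psmd5*) CPM per kb and those of the 20S core at 8.85 (*Psmg4*) to 12.6 (*Psmg2*) CPM per kb. Among the activators, *Psme3*, the nuclear PA28 gamma, was highest at 42.9 CPM per kb and *Psme4*, PA200, lowest at 8.89 CPM per kb.

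**Figure D1:**
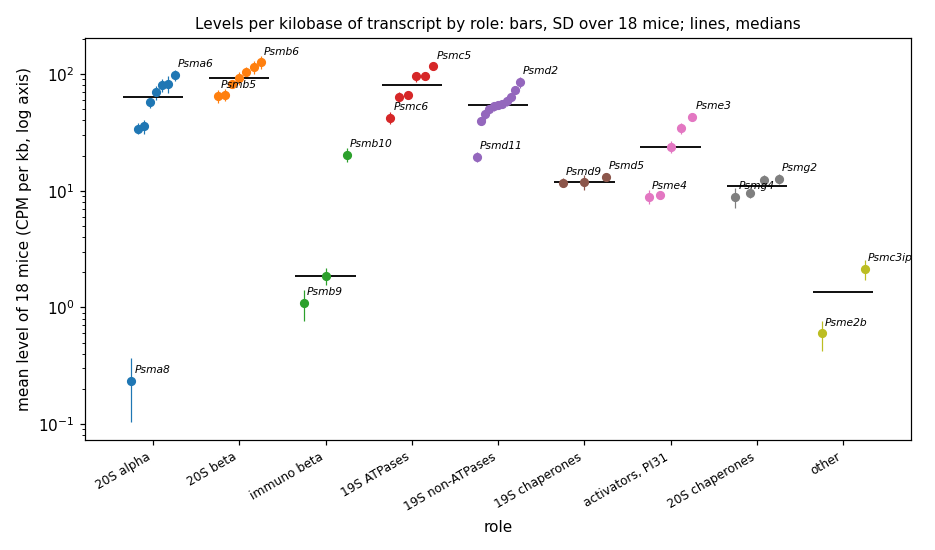
Mean level of each member over 18 mice, in CPM per kilobase of the longest annotated transcript on a log axis, by role; bars are the SD over the 18 mice and horizontal lines the median of the role. The constitutive subunits lie between 19.5 and 126 CPM per kb, while *Psma8*, *Psmb8* and *Psmb9* lie under 2.

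*Psmb8* and *Psmb9* of the immunoproteasome and *Psma8*, a testis-type alpha subunit, were at the low end, while *Psmb10* was at a level close to that of *Psmd11*. *Psmb10*, the inducible partner of *Psmb7*, had 22.9 to 37.3 CPM, while *Psmb8*, the partner of *Psmb5*, had 2.08 to 3.98 CPM and *Psmb9*, the partner of *Psmb6*, 0.580 to 2.23 CPM, which is 19 to 68 reads per library. Per kilobase, *Psmb10* was at 20.4 CPM per kb and *Psmb9* at 1.09 CPM per kb, against 64.6 to 126 CPM per kb for the constitutive beta genes. *Psma8*, which takes the place of *Psma7* in spermatocytes, had 4 to 28 reads per library. Some members share exon bases with other genes. On the same strand, the exons of *Psmb5* overlap *Mir686* over 12.1% of their bases and those of *Psmg3* overlap *Gm26938* over 9.68%. On the other strand, those of *Psmc3ip* overlap *Mlx* over 21.2%. The exons of *Psmb8* and *Psmb9* overlap *Gm20496* and *Tap1* on the other strand over 14.7% and 5.79% of their bases, those of *Psmb7* overlap *Nek6* over 11.8%, those of *Psmd13* overlap *Sirt3* over 10.1% and those of *Psmd9* overlap *Gm26745* over 25.5%, and the strand setting of the counting is not given in the sources used here.

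The first comparison asks how trained mice differed from untrained mice within each genotype. The paper's mapping statistics give a higher share of uniquely mapped reads in every KO_OL, WT_RL and KO_RL library than in any untrained library. WT_OL mouse 1 and mouse 3 were also above all untrained libraries, and WT_OL mouse 2 was within their range. An effect of training and one of this library difference cannot be told apart in those groups. After reversal learning in KO mice, 15 of 49 members fell (30.6%) and 2 rose (4.08%), against 12% of all genes that fell and 11.6% that rose in the same comparison. The median change over the members was -0.18 on the log2 scale, beside -0.00 over all genes, and 37 members had a negative value. The falls were mostly in the 20S core, with 5 of 8 alpha genes, 3 of 7 constitutive beta genes and *Psmb9*, and both rises were in the 19S base and lid. All 3 KO_RL mice were below all 3 KO_Basal mice for 20 members (40.8%, against 22.6% of all genes) and above them for 5 (10.2%, against 22.7%). In WT mice after reversal learning, 4 of 49 members fell and 4 rose (8.16% each), against 7.42% and 8.28% of all genes, with a median change of -0.03 beside 0.00, and 8 members were below without overlap and 6 above (16.3% and 12.2%, against 16.7% and 17.6%). The number called in KO_RL, 17, was 7 without KO_Basal mouse 1, 10 without KO_Basal mouse 2, 8 without KO_RL mouse 2 and 11 without KO_RL mouse 3. The 8 called in WT_RL were 3 without WT_Basal mouse 1, 2 without WT_Basal mouse 3, and 4 without WT_RL mouse 1 or 2.

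The same comparisons were made for original learning. In KO_OL against KO_Basal, 7 of 49 members fell (14.3%) and 4 rose (8.16%), against 12.3% and 11.2% of all genes, and the median change was -0.10 beside -0.01. Without overlap, 19 members were below KO_Basal and 8 above (38.8% and 16.3%, against 24.6% and 24.2%), and in WT_OL 6 were below and 7 above (12.2% and 14.3%, against 15.2% and 13.1%). In WT_OL against WT_Basal, 2 of 49 fell (4.08%) and 0 rose, against 5.62% and 3.88%, by limma with adjusted p, and at an unadjusted p under 0.05, 4 were lower and 7 higher (22.4% together, against 25.9% of all genes). By voom on the recovered reads none of the 49 passed in WT_OL against WT_Basal. The 11 called in KO_OL were 6 without KO_Basal mouse 2 and 7 without KO_Basal mouse 1 or KO_OL mouse 2 or 3, and the 2 in WT_OL fell to 0 without any WT_Basal mouse, to 1 without WT_OL mouse 1 or 2, and to 0 without 9 of the 12 mice of other groups. The share called higher moved with the scaling: after quantile normalization 3 were higher and 0 lower in WT_OL (5.24% and 6.01% of all genes), 2 and 7 in KO_OL (11.1% and 11.8%) and 3 and 5 in WT_RL (7.81% and 7.59%). In these 4 comparisons with Basal on the deposited values, and apart from the falls in KO_RL, the shares of members called were close to or under those of all genes. With trends on GC content and length removed, as given below, the shares of rises were above those of all genes. The members called in both genotypes, in comparisons that share no mouse, were *Psma4* and *Psmc6* (lower after original learning), *Psma1*, *Psma4* and *Psmc6* (lower after reversal learning) and *Psmd2* and *Psmd11* (higher after reversal learning).

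**Figure D2:**
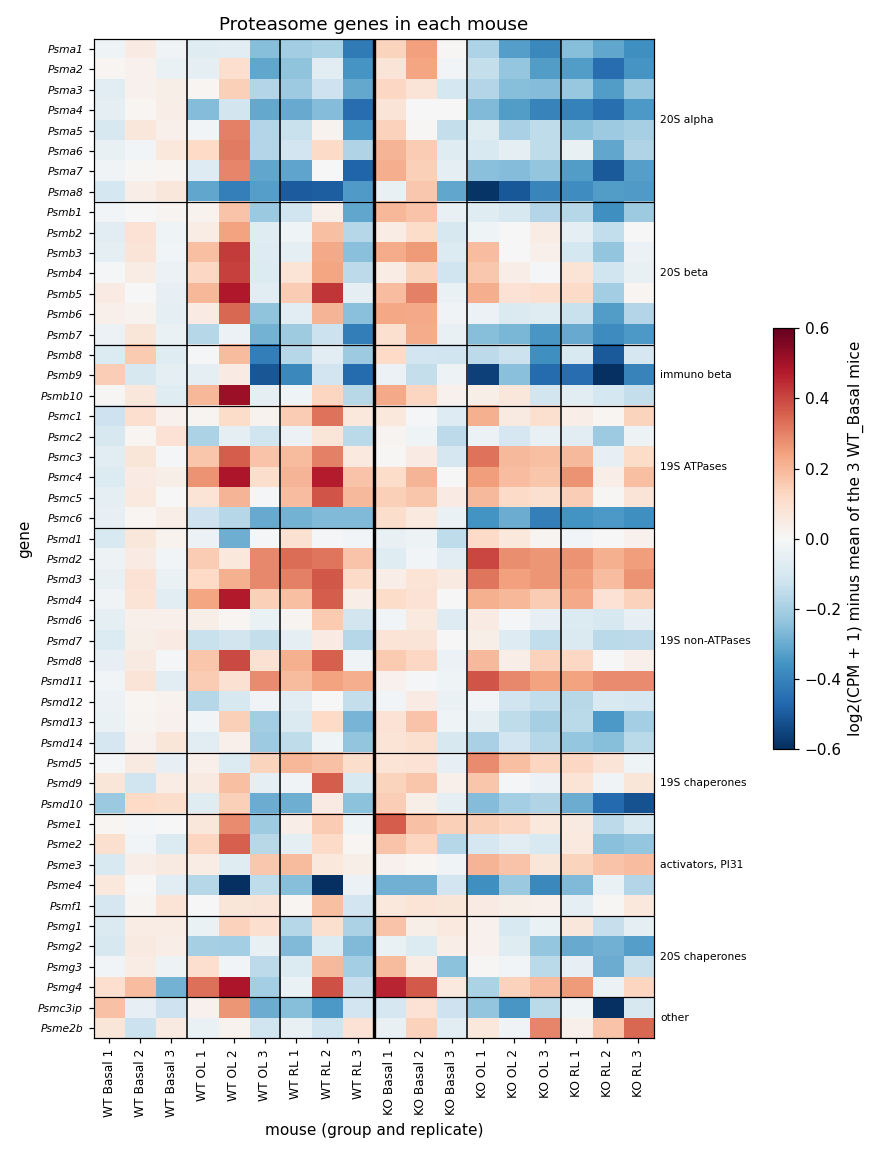
Each of the 49 members (rows, by role) in each of the 18 mice (columns, by group), as log2(CPM + 1) minus the mean of the 3 WT_Basal mice; blue is lower and red is higher, with colours ending at 0.6 in either direction. *Psma1*, *Psma4* and *Psmc6* are blue in all trained mice, and *Psmd2* and *Psmd11* are red in them.

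Of the 8 alpha ring genes, whose products gate the core and bind its activators, 5 fell in KO_RL, 5 in KO_OL, 3 in WT_RL and 1 in WT_OL. The level of *Psma1* (chr7:114264606-114276118, GRCm38, minus strand), an alpha ring subunit, was 102, 109.8 and 92.7 CPM in KO_Basal, 81.0, 73.2 and 70.4 CPM in KO_OL and 77.2, 74.2 and 71.5 CPM in KO_RL. In WT mice it was 90.7, 95.5 and 91.1 CPM in Basal, 87.8, 88.5 and 77.3 CPM in OL and 79.7, 80.9 and 68.6 CPM in RL. Every trained mouse was below every untrained mouse of its genotype. *Psma1* fell by 0.44 ± 0.08 (log2, SE, limma adjusted p = 0.00147) in KO_RL, by 0.43 ± 0.08 (adjusted p = 0.00168) in KO_OL and by 0.28 ± 0.08 (adjusted p = 0.0333) in WT_RL, while the value for WT_OL was -0.13 ± 0.08 (adjusted p = 0.344).

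*Psma4* (chr9:54950790-54958030, plus strand), another alpha ring subunit, was at 104, 109.5 and 112 CPM in WT_Basal, 90.4, 100.4 and 87.4 CPM in WT_OL and 87.8, 90.5 and 78.7 CPM in WT_RL. In KO mice the values were 114, 108 and 108 CPM in Basal, 90.01, 85.7 and 82.0 CPM in OL and 81.7, 79.0 and 85.3 CPM in RL. All 12 trained mice were below all 6 untrained mice, and *Psma4* was the alpha gene called in all 4 comparisons with Basal, with changes of -0.42 ± 0.07 in KO_RL, -0.36 ± 0.07 in KO_OL, -0.34 ± 0.07 in WT_RL and -0.23 ± 0.07 in WT_OL (limma adjusted p = 0.000535, 0.00175, 0.00411 and 0.0487). The call in WT_OL was lost in 24 of 31 alternatives. It was lost without WT_Basal mouse 1, 2 or 3, WT_OL mouse 1 or WT_OL mouse 3 (limma adjusted p of 0.0808 to 0.163), and without 10 of the 12 mice of the other groups, which share the estimate of the spread.

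*Psma2* and *Psma7* had the largest falls of the ring in KO_RL. *Psma2* was at 119, 133 and 111 CPM in KO_Basal and 89.2, 81.9 and 88.0 CPM in KO_RL (-0.48 ± 0.10, limma adjusted p = 0.00282). *Psma7* was at 121, 115 and 99.6 CPM in KO_Basal and 82.0, 72.9 and 82.2 CPM in KO_RL (-0.49 ± 0.13, adjusted p = 0.0128). Neither overlapped between the groups. The call of *Psma2* was lost with GC correction (-0.19, adjusted p = 0.320). In WT_RL, *Psma7* spread from 74.1 to 103 CPM against 102 to 105 CPM in WT_Basal and was not called (-0.27 ± 0.13, adjusted p = 0.180). *Psma3* fell in KO_OL and KO_RL, and *Psma5* and *Psma6* were not called in any comparison. All 8 alpha genes had negative values in KO_OL, WT_RL and KO_RL, and 6 of 8 in WT_OL, with medians of -0.34, -0.24, -0.36 and -0.06.

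*Psma8* had few reads. Its level was 0.566, 0.733 and 0.764 CPM in WT_Basal, 0.356, 0.267 and 0.339 CPM in WT_OL and 0.192, 0.198 and 0.333 CPM in WT_RL. KO mice had 0.636, 0.886 and 0.358 CPM in Basal, 0.123, 0.185 and 0.280 CPM in OL and 0.303, 0.336 and 0.332 CPM in RL. The trained mice were below the untrained mice of their genotype, and *Psma8* fell in KO_OL and WT_RL (-0.43 ± 0.12 and -0.44 ± 0.12 on the log2(CPM + 1) scale, which understates the fold of so low a gene, limma adjusted p = 0.0139 and 0.0181). The call in KO_OL was lost without KO_Basal mouse 2 or KO_OL mouse 1 (adjusted p = 0.0777 and 0.0598), and that in WT_RL without WT_Basal mouse 2 or 3 or WT_RL mouse 1 or 2 (adjusted p of 0.0528 to 0.0730) or in a fit of the compared groups only. Both calls were also lost with CPM floored at 1, where all values are equal, with GC correction (-0.25 in KO_OL and -0.28 in WT_RL, adjusted p = 0.143 and 0.150), also with the replicate block, and with GC and length correction (-0.15 and -0.21).

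**Figure D3:**
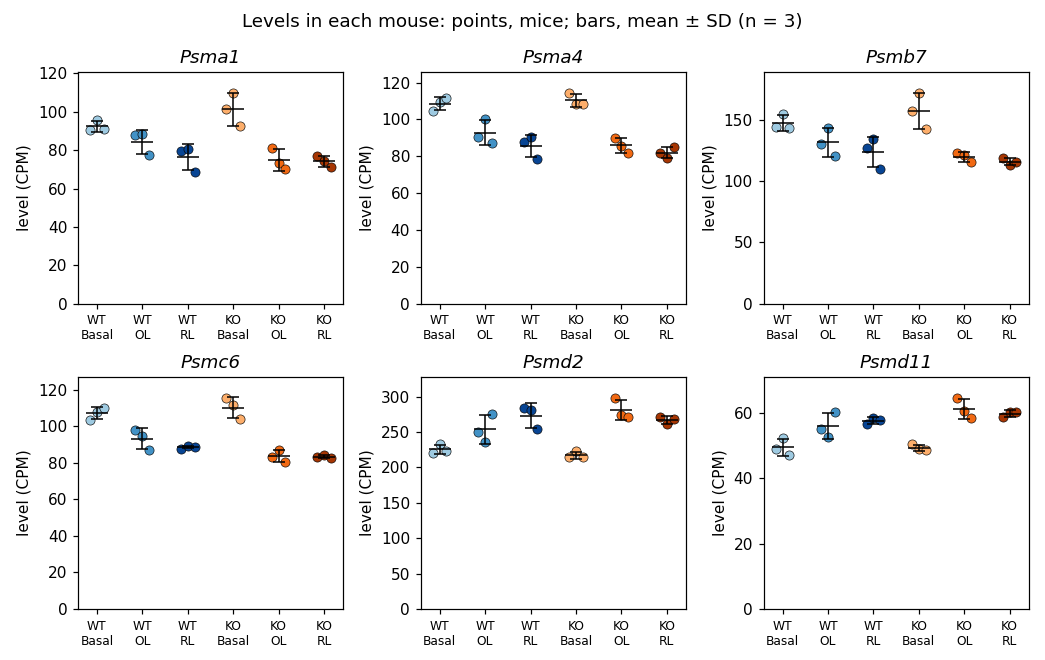
Level in CPM of 6 members in each mouse by group; points are mice and bars the mean ± SD (n = 3). *Psma1*, *Psma4*, *Psmb7* and *Psmc6* are lower, and *Psmd2* and *Psmd11* higher, in KO mice after training than in KO_Basal, without overlap.

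In the beta ring, the gene of the trypsin-like site fell most clearly. *Psmb7* (chr2:38588036-38644087, minus strand) was at 157, 172 and 143 CPM in KO_Basal, 123, 121 and 115 CPM in KO_OL and 119, 113 and 115 CPM in KO_RL. In WT mice it was at 144, 154 and 143 CPM in Basal, 130.5, 144 and 120.5 CPM in OL and 127, 134 and 109.9 CPM in RL. The KO groups did not overlap with KO_Basal, and *Psmb7* fell by 0.38 ± 0.09 in KO_OL and by 0.43 ± 0.09 in KO_RL (limma adjusted p = 0.00430 and 0.00195), whereas WT_RL (-0.25 ± 0.09, adjusted p = 0.0543) and WT_OL (-0.16 ± 0.09, adjusted p = 0.241) were not called. *Psmb7* in KO_OL and KO_RL was among the results called under all 31 alternatives.

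The other catalytic genes gave smaller changes. *Psmb6* was at 119, 118 and 99.7 CPM in KO_Basal and 92.0, 79.8 and 89.5 CPM in KO_RL (-0.36 ± 0.13, limma adjusted p = 0.0497). That call was lost in 17 of 31 alternatives, among them without KO_Basal mouse 1 or 2 or any KO_RL mouse (adjusted p of 0.0685 to 0.160) and without 8 of the 12 mice of other groups. In the other training comparisons with Basal its values lay between -0.21 and 0.05. *Psmb5* was not called in any comparison, with 60.8, 66.2 and 52.0 CPM in KO_Basal and 57.9, 46.2 and 53.8 CPM in KO_RL (-0.18 ± 0.13, adjusted p = 0.360), so the groups overlapped. *Psmb1* also fell in KO_RL (-0.36 ± 0.10, adjusted p = 0.0179), while *Psmb2*, *Psmb3* and *Psmb4* did not pass.

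Of the immunoproteasome genes, *Psmb9* fell in KO_RL, from 1.84, 1.65 and 1.85 CPM to 1.12, 0.580 and 1.21 CPM (-0.51 ± 0.16, limma adjusted p = 0.0290). This call was lost when any of the 3 KO_Basal mice or KO_RL mouse 2 was left out (adjusted p of 0.0549 to 0.131) and with the length correction or GC and length correction (adjusted p = 0.0556 and 0.0505). *Psmb8* (-0.20 ± 0.15, adjusted p = 0.362) and *Psmb10* (-0.23 ± 0.11, adjusted p = 0.155) were not called in KO_RL. Of 16 genes of antigen presentation and the interferon response, 3 fell and 1 rose there, and 5 of 10 microglia markers fell, with a summed level of 638 to 696 CPM in KO_Basal and 485 to 628 CPM in KO_RL and no marker at 0. Their part in the change of *Psmb9* was not tested.

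The ATPases of the base, which form the ring that unfolds substrates, moved in different directions. *Psmc6* (chr14:45329788-45349705, plus strand) was at 115, 111 and 104 CPM in KO_Basal, 83.4, 86.8 and 80.2 CPM in KO_OL and 83.3, 84.1 and 82.9 CPM in KO_RL. The WT levels were 104, 108 and 110.01 CPM in Basal, 98.2, 94.9 and 86.8 CPM in OL and 87.8, 89.1 and 88.9 CPM in RL. All 12 trained mice were below all 6 untrained mice, and *Psmc6* was called in all 4 comparisons with Basal (-0.40 ± 0.06 in KO_RL, -0.40 ± 0.06 in KO_OL, -0.27 ± 0.06 in WT_RL and -0.20 ± 0.06 in WT_OL, limma adjusted p = 0.000310, 0.000308, 0.00708 and 0.0475). The call in WT_OL was lost without any WT_Basal mouse, without WT_OL mouse 2 or 3 (adjusted p of 0.0633 to 0.164) and without 11 of the 12 mice of other groups. Its transcript has a GC content of 37.0%, the lowest of the members, and removing a trend on GC content from each library ended each of these calls, with changes of -0.00, 0.07, 0.13 and 0.17 in the same order.

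*Psmc3* rose in KO_OL and *Psmc5* in WT_RL. *Psmc3* was at 159, 164 and 148 CPM in KO_Basal and 199, 182 and 179 CPM in KO_OL (0.25 ± 0.08, limma adjusted p = 0.0411), and *Psmc5* at 136, 147 and 141 CPM in WT_Basal and 161, 184 and 162 CPM in WT_RL (0.25 ± 0.07, adjusted p = 0.0273). Neither pair of groups overlapped. *Psmc1*, *Psmc2* and *Psmc4* were not called in any comparison of pairs of groups.

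Of the 11 subunits of the 19S particle outside the ATPase ring, *Psmd2*, *Psmd3* and *Psmd11* rose in at least 1 comparison with Basal and *Psmd13* and *Psmd14* fell in KO_RL. *Psmd2* (chr16:20651652-20663414, plus strand), a docking platform for ubiquitin receptors and shuttles, was at 214, 223 and 215 CPM in KO_Basal, 298, 274 and 271 CPM in KO_OL and 272, 261 and 268 CPM in KO_RL. WT mice had 221, 233 and 222 CPM in Basal, 250.2, 235 and 275 CPM in OL and 284, 282 and 254 CPM in RL. All 12 trained mice were above all 6 untrained mice, and *Psmd2* rose by 0.37 ± 0.07 in KO_OL, 0.30 ± 0.07 in KO_RL and 0.28 ± 0.07 in WT_RL (limma adjusted p = 0.00140, 0.00579 and 0.0138), while WT_OL gave 0.17 ± 0.07 (adjusted p = 0.137). Both KO calls held under all 31 alternatives, and the WT_RL call was lost in 7, among them without WT_Basal mouse 1 or 3 or WT_RL mouse 1 or 2 (adjusted p of 0.0513 to 0.0577).

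*Psmd11* (chr11:80428615-80473248, plus strand), a lid subunit linked to proteasome assembly and activity, was at 50.3, 49.1 and 48.5 CPM in KO_Basal, 64.4, 60.6 and 58.5 CPM in KO_OL and 58.6, 60.3 and 60.4 CPM in KO_RL. In WT mice it was at 48.9, 52.2 and 47.2 CPM in Basal, 55.1, 52.6 and 60.3 CPM in OL and 56.6, 58.5 and 57.7 CPM in RL. Again the trained and the untrained mice did not overlap. *Psmd11* rose by 0.31 ± 0.06 in KO_OL, 0.27 ± 0.06 in KO_RL and 0.22 ± 0.06 in WT_RL (limma adjusted p = 0.00266, 0.00545 and 0.0281). *Psmd3*, another lid scaffold, was at 97.2, 107 and 97.5 CPM in WT_Basal and 124, 130.2 and 109 CPM in WT_RL and rose there and in KO_OL (0.26 ± 0.07 and 0.22 ± 0.07, adjusted p = 0.0190 and 0.0327). Without WT_Basal mouse 1 or 3 or WT_RL mouse 1 or 2, the WT_RL call of *Psmd3* was lost (adjusted p of 0.0598 to 0.0849).

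*Psmd14*, the deubiquitinase that cuts off the ubiquitin chain, was at 109.9, 111 and 97.2 CPM in KO_Basal and 88.3, 86.9 and 92.7 CPM in KO_RL, without overlap (-0.24 ± 0.08, limma adjusted p = 0.0344). The call was lost in 9 of 31 alternatives, among them without KO_Basal mouse 1 or 2 or any KO_RL mouse (adjusted p of 0.0553 to 0.126). *Psmd13* also fell in KO_RL (-0.32 ± 0.10, adjusted p = 0.0313). *Psmd1*, *Psmd4*, *Psmd6*, *Psmd7*, *Psmd8* and *Psmd12* were not called in any comparison of pairs of groups, while *Psmd4*, a ubiquitin receptor, was called higher after original learning over both genotypes.

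Among the assembly factors, *Psmd10*, the chaperone gankyrin that binds *Psmc4*, fell in KO_RL from 20.8, 19.1 and 17.9 CPM to 14.96, 13.2 and 12.7 CPM (-0.47 ± 0.12, limma adjusted p = 0.0115). *Psmg2*, which helps to build the alpha ring, fell from 17.5, 16.9 and 18.5 CPM to 14.4, 14.5 and 14.1 CPM (-0.28 ± 0.08, adjusted p = 0.0250). Neither overlapped between the groups. Leaving out KO_Basal mouse 1 or KO_RL mouse 3 ended the call of *Psmd10* (adjusted p = 0.0587 and 0.0530), as did GC correction (-0.30, adjusted p = 0.150), also with the replicate block, and GC and length correction (-0.13, adjusted p = 0.450). In turn, leaving out KO_Basal mouse 1 or 3 or any KO_RL mouse ended that of *Psmg2* (adjusted p of 0.0504 to 0.0796), which was also lost with quantile normalization, with length correction (-0.12, adjusted p = 0.422), with GC and length correction (-0.06, adjusted p = 0.686) and with the block and GC correction. *Psmd5*, *Psmd9*, *Psmg1*, *Psmg3* and *Psmg4* were not called in any of the 4 comparisons with Basal.

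Of the activators, *Psme1*, a subunit of the interferon-inducible PA28 cap, was at 46.8, 41.0 and 40.0 CPM in KO_Basal and 37.6, 32.4 and 33.9 CPM in KO_RL (-0.29 ± 0.10, limma adjusted p = 0.0484). The groups did not overlap, but the call was lost in 17 of 31 alternatives, among them without any KO_Basal mouse or KO_RL mouse 2 or 3 (adjusted p of 0.0516 to 0.200) and without 8 of the 12 mice of other groups. Its partner *Psme2* gave -0.18 ± 0.12 (adjusted p = 0.294), *Psme3* 0.16 ± 0.07 (adjusted p = 0.107), *Psme4* 0.07 ± 0.14 (adjusted p = 0.753) and *Psmf1*, which encodes PI31, -0.07 ± 0.07 (adjusted p = 0.527). *Psmc3ip* gave -0.22 ± 0.16 (adjusted p = 0.357) and *Psme2b* 0.17 ± 0.12 (adjusted p = 0.310).

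Over both genotypes, which sets 6 trained against 6 untrained mice, 6 of 49 members fell and 6 rose after original learning (12.2% each, against 15.3% and 13.4% of all genes). After reversal learning 14 fell (28.6%) and 3 rose (6.12%), against 17.4% and 18% of all genes. The risers were *Psmc3*, *Psmc4*, *Psmd2*, *Psmd3*, *Psmd4* and *Psmd11* after original learning and *Psmd2*, *Psmd3* and *Psmd11* after reversal learning. After reversal learning all 6 trained mice were below all 6 untrained mice for *Psma1*, *Psma2*, *Psma3*, *Psma4*, *Psma8*, *Psmb7* and *Psmc6* (14.3% of members, against 9.38% of all genes).

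**Figure D4:**
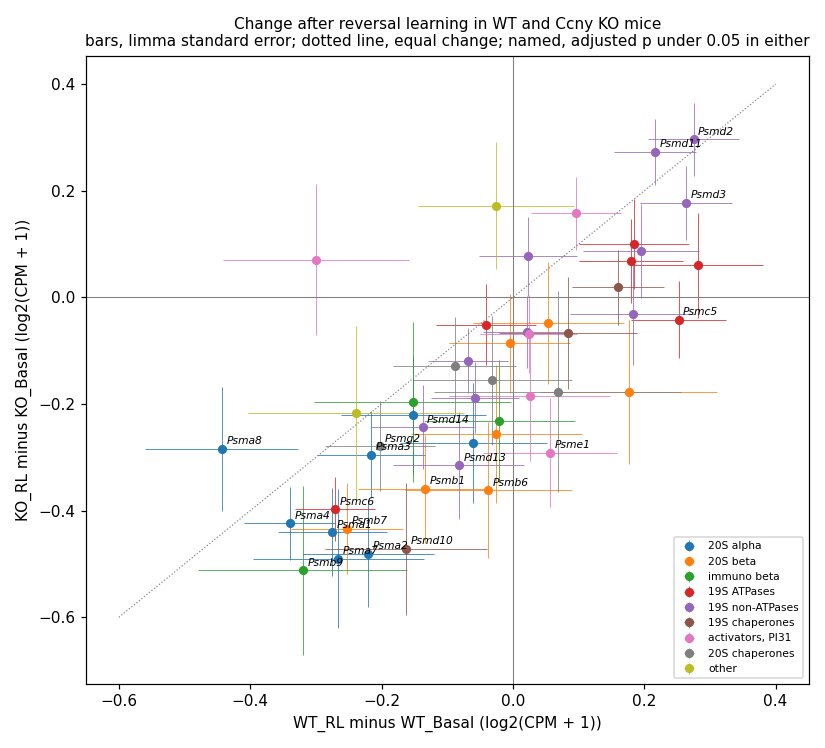
Change of each member after reversal learning in WT mice (horizontal axis, WT_RL minus WT_Basal) and in KO mice (vertical axis, KO_RL minus KO_Basal), in log2(CPM + 1) with bars of 1 limma SE; the dotted line marks equal change and members called in either genotype are named. *Psmd2* and *Psmd11* are at the top right and the alpha genes *Psma1*, *Psma2*, *Psma4* and *Psma7* at the bottom left, and most members lie below the dotted line.

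The next comparison asks whether the knockout altered these levels or their change with training. No member was called between genotypes at any training state, against 0.0196% of all genes in KO_Basal, 0.0652% in KO_OL and 0% in KO_RL. At an unadjusted p under 0.05, limma gave 1 member in KO_Basal (*Psme1*, 0.23 ± 0.10), 5 in KO_OL and 2 in KO_RL, which are 2.04%, 10.2% and 4.08% of members against 4%, 18% and 4.93% of all genes. Without WT_OL mouse 3, 6 members were called between KO_OL and WT_OL. The share of all genes called in that fit is not given here, so this count cannot be read as particular to the members. The difference between genotypes in the change itself was called for 0 members and 0% of all genes, for original learning, reversal learning against original learning and reversal learning against Basal, by limma with adjusted p, with 5, 2 and 2 members at an unadjusted p under 0.05 (10.2%, 4.08% and 4.08%, against 12.4%, 7.98% and 4.99% of all genes). For *Psmc5* the change after reversal learning was 0.25 in WT and -0.04 in KO mice, and for *Psme1* 0.06 and -0.29, and the tests of these differences gave adjusted p = 0.908 for both. The larger number of falls in KO_RL than in WT_RL is thus not shown to be a difference between the genotypes. By voom the counts for these 3 differences were also 0, and with library weights 14, 1 and 0 members were called (28.6%, 2.04% and 0%, against 25.5%, 3.22% and 0% of all genes).

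Between original and reversal learning no member was called, against 0.261% of all genes in WT mice and 0.0196% in KO mice. At an unadjusted p under 0.05, limma gave 2 members in WT mice (*Psma3* and *Psmc5*, 4.08% against 16.4% of all genes) and 1 in KO mice (*Psmg2*, 2.04% against 4.81%). Without WT_OL mouse 3, 2 members were called in WT mice, and the share of all genes in that fit is not given here. In KO mice 43 of 49 members had negative values from OL to RL, with a median of -0.06 beside 0.00 over all genes. The share of all genes with negative values is not given here. Without overlap, 8 members were below KO_OL in KO_RL and 1 above (16.3% and 2.04%, against 6.33% and 6.91% of all genes). In WT_RL against WT_OL 0 members were below and 0 above, against 5.34% and 5.74% of all genes.

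Alpha ring and ATPase genes were also compared within single libraries. The mean log2 level of the 7 alpha genes without *Psma8* minus that of the 6 ATPases, set to 0 in WT_Basal, was 0.04 in KO_Basal (lowest -0.00, highest 0.06) and lay between -0.03 and 0.04 in the WT_Basal mice. It was -0.11 in WT_OL (-0.22 to -0.02), -0.32 in WT_RL (-0.37 to -0.29), -0.27 in KO_OL (-0.29 to -0.26) and -0.29 in KO_RL (-0.30 to -0.28). The mice of WT_RL, KO_OL and KO_RL were below all untrained mice, and WT_OL mouse 1 and mouse 3 were too, while WT_OL mouse 2 lay at the level of the untrained mice. Relative to WT_Basal, the alpha genes had means of 0.07 in KO_Basal, -0.05 in WT_OL, -0.22 in WT_RL, -0.23 in KO_OL and -0.31 in KO_RL. The 7 constitutive beta genes, the other rings of the core, had means of 0.10, 0.07, -0.03, -0.03 and -0.15 in the same order. Both sets were lower in KO_OL and KO_RL than in KO_Basal. In WT_OL only the alpha mean was below WT_Basal. These are values of chosen genes and carry no test.

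Most core genes moved together from mouse to mouse within groups. Over the deviations of the 18 libraries from their group means, the median correlation was 0.93 among the 21 pairs of constitutive beta genes, 0.82 among the 21 pairs of alpha genes, 0.87 between alpha and beta genes and 0.72 among the 465 pairs of the 31 constitutive genes, against -0.03 between these and genes that are no members. Correlations with non-members ran from -0.63 to 0.64 (10th to 90th percentile), so correlation with core genes was not confined to members. The 19S non-ATPase subunits moved together less. Of their 77 pairs with alpha genes 76.6% were positive (median 0.62), and of the 55 pairs among themselves 83.6% (median 0.53). The pairs share libraries and are not independent. WT_OL mouse 2 and mouse 3 were the extremes, with a median deviation of the members of 0.13 and -0.13. WT_RL mouse 2 and mouse 3 were close to them, at 0.13 and -0.12.

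Transcript length and base composition moved with the changes in all genes. In KO_RL against KO_Basal the median change of all genes was -0.23 for transcripts under 1000 bases, -0.16 from 1000 to 1500 bases and 0.09 over 3000 bases, and -0.18 for a GC content under 45% and 0.10 from 55%. Of the members, 25 have a longest transcript under 1500 bases, and the 9 members with a GC content under 45%, *Psma1*, *Psma2*, *Psma3* and *Psmc6* among them, had a median change of -0.40. In KO_RL the 14 members from 50 to 55% had a median of -0.08 against 0.06 over all genes. The 9 members from 55% had a median of -0.18 against 0.10. In KO_OL against KO_Basal the medians of these classes were -0.04 against 0.07 and -0.13 against 0.11. In WT_RL against WT_Basal they were 0.05 against 0.07 and -0.02 against 0.11. In WT_OL against WT_Basal they were 0.10 against 0.05 and 0.21 against 0.15. With trends on GC content and on length both removed, an alternative chosen after seeing the data, 5 members fell and 4 rose in KO_RL (10.2% and 8.16%, against 6.08% and 6% of all genes), in place of 15 and 2. *Psma7*, *Psmb1*, *Psmb6*, *Psmb7* and *Psmd13* were still lower and *Psmd2* and *Psmd11* still higher, *Psmc1* and *Psmc4* were added as risers, and *Psma1*, *Psma2*, *Psma4* and *Psmc6* were no longer called. In KO_OL the counts were then 3 lower and 6 higher in place of 7 and 4 (7.22% and 7.1% of all genes), in WT_RL 1 and 6 in place of 4 and 4 (3.74% and 4.98%), and in WT_OL 0 and 3 in place of 2 and 0 (1.75% and 1.9%). Over both genotypes they were 3 lower and 12 higher after original learning (8.58% and 8.47% of all genes) and 6 and 10 after reversal learning (12.2% and 13.2%). With both trends removed, the share of members that rose was thus above that of all genes in each of these comparisons. The share that fell was above that of all genes in KO_RL and close to or under it in the others.

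Each trend was also removed alone. Without the length trend, 10 members were lower and 8 higher in KO_RL (12.3% and 12.1% of all genes), 8 and 9 in KO_OL (13.5% and 13.7%), 6 and 10 in WT_RL (9.58% and 11.1%) and 4 and 3 in WT_OL (8.05% and 6.91%). Over both genotypes they were then 7 and 13 after original learning (17.2% and 17.2%) and 14 and 12 after reversal learning (18.1% and 19.4%). Without the GC trend, 12 were lower and 2 higher in KO_RL (8.61% and 9.01%), 5 and 3 in KO_OL (7.64% and 7.61%), 0 and 2 in WT_RL (3.09% and 4.18%) and 0 and 0 in WT_OL (0.998% and 1.22%). The difference between alpha genes and ATPases was -0.01 in WT_OL (-0.14 to 0.12), -0.22 in WT_RL (-0.30 to -0.17), -0.17 in KO_OL (-0.18 to -0.16) and -0.20 in KO_RL (-0.20 to -0.19) after both corrections, against 0.01 to 0.06 in KO_Basal. Relative to WT_Basal, the corrected alpha mean was then -0.03 in WT_RL, -0.01 in KO_OL and -0.07 in KO_RL. The corrected ATPase mean was 0.19, 0.16 and 0.13 in the same order. In KO_Basal the corrected means were 0.04 for alpha genes and 0.004 for ATPases. With GC correction alone, the alpha means were -0.12, -0.10 and -0.20 in WT_RL, KO_OL and KO_RL. The ATPase means were then 0.12, 0.08 and 0.02, and KO_Basal had 0.08 for alpha genes and 0.03 for ATPases. Which set held the remaining difference thus depended on the correction and the genotype.

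**Figure D5:**
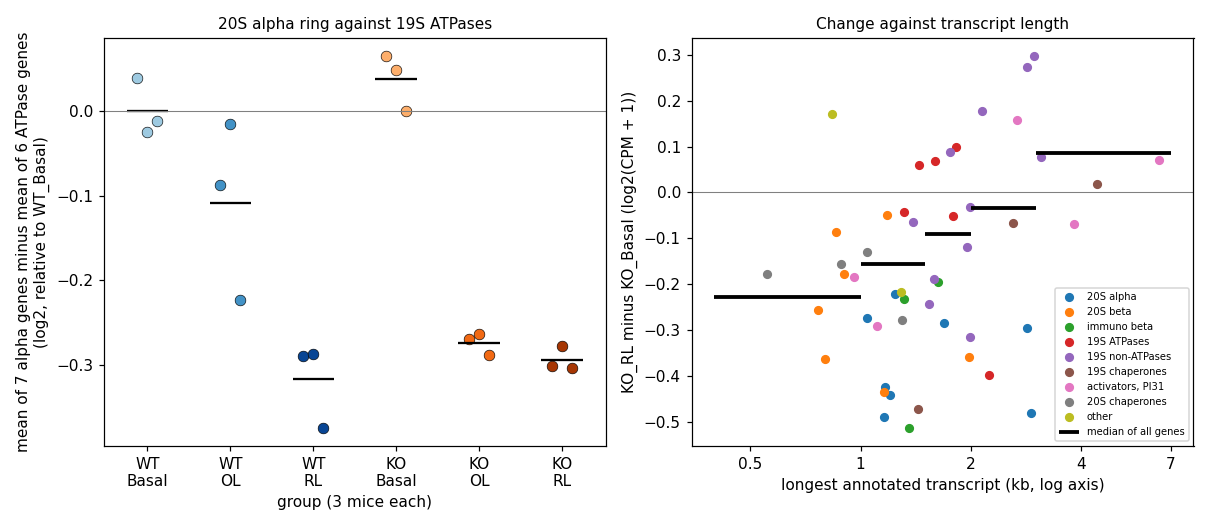
Left, mean log2 level of 7 alpha genes minus that of 6 ATPase genes in each mouse (points) with the group mean (line), relative to WT_Basal: the mice of WT_RL, KO_OL and KO_RL lie between -0.37 and -0.26 and the untrained mice between -0.03 and 0.06. Right, change of each member in KO_RL against KO_Basal by the length of its longest transcript on a log axis, with the medians of all genes per length class as black lines, which run from -0.23 to 0.09.

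Markers of other cells and of RNA state moved in the same comparisons. Choroid plexus markers had a summed level of 58.0 to 702 CPM in KO_Basal and of 2517 to 4841 CPM in KO_OL and 1410 to 5264 CPM in KO_RL, with 12 and 10 of 12 called higher and none at 0, and their part in the KO changes was not tested. In WT_RL against WT_Basal 0 of these 12 was called by limma, and 0 at an unadjusted p under 0.05, with a summed level of 910 to 4540 CPM in WT_Basal and 50.7 to 8808 CPM in WT_RL. Of 9 nuclear noncoding RNAs, such as *Malat1*, 7 fell in KO_OL, 4 in WT_RL, 3 in KO_RL and 2 in WT_OL, with a summed level of 2914 to 3995 CPM in KO_Basal and 1262 to 1888 CPM in KO_OL and none at 0. Endothelial markers gave 1 of 10 higher and 4 lower in both KO comparisons, and of the markers of astrocytes, oligodendrocytes and hypothalamic neurons at most 1 each was called there. The hypothalamic markers nevertheless spread widely in KO_Basal, with a summed level of 4.88 to 115 CPM. Their sums were 6.53 to 14.7 CPM in KO_OL and 2.99 to 5.28 CPM in KO_RL. The part of these lists in the member changes was not tested.

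Lists of genes that work with the proteasome held calls in both directions. Over all genes, 11.6% rose and 12% fell in KO_RL, 11.2% and 12.3% in KO_OL, 8.28% and 7.42% in WT_RL and 3.88% and 5.62% in WT_OL, with medians of all genes between -0.01 and 0.00. Of 19 listed proteasome-bound and shuttle proteins, 3 rose and 2 fell in KO_RL, 4 and 4 in KO_OL, 2 and 1 in WT_RL and 1 and 2 in WT_OL, with medians of -0.09, -0.14, -0.05 and -0.14. *Zfand5*, an activator of the 26S particle, fell in all 4 comparisons (-0.46 in KO_RL, -0.49 in WT_RL, -0.44 in KO_OL and -0.36 in WT_OL), *Ubqln4*, a shuttle, rose in all 4 (0.27 to 0.40), and *Ddi2*, the protease that releases active NRF1, rose in 3 (0.40 to 0.48). *Txnl1*, a thioredoxin-like protein bound to the cap, fell by 0.35 in KO_OL and by 0.38 in KO_RL. *AI314180*, the mouse *Ecpas*, rose in KO_OL and KO_RL (0.24 and 0.36). *Adrm1*, a ubiquitin receptor, rose in KO_OL (0.26, limma adjusted p = 0.0272), *Shfm1*, a small lid subunit, fell there (-0.35, adjusted p = 0.0493), and *Pomp*, the chaperone of the beta ring, was not called (-0.28, adjusted p = 0.0815 in KO_RL).

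Of 21 genes of ubiquitin and its activation and transfer, 4 rose and 5 fell in KO_RL, 5 and 4 in KO_OL, 3 and 3 in WT_RL and 0 and 4 in WT_OL, with medians between -0.09 and 0.03. *Ube2d1* and *Ube2d3*, ubiquitin-conjugating enzymes, fell in all 4, *Ube2d3* by 0.58, 0.78, 0.72 and 0.69 in WT_OL, KO_OL, WT_RL and KO_RL. *Uba1*, the main activating enzyme, rose in KO_OL, WT_RL and KO_RL (0.53, 0.38 and 0.47). *Ubb*, a polyubiquitin gene, was not called in these 4 comparisons, and *Rps27a*, a ubiquitin fusion with a ribosomal protein, fell in KO_OL and KO_RL (-0.67 and -0.57).

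Of 12 listed regulators of proteasome genes, 5 rose and 2 fell in KO_RL, 4 and 2 in KO_OL, 4 and 1 in WT_RL and 2 and 1 in WT_OL, with medians of 0.18, 0.18, 0.16 and 0.12. *Nfe2l1*, which encodes NRF1, rose in KO_OL, KO_RL and WT_RL (0.37, 0.31 and 0.25, limma adjusted p = 0.00168, 0.00569 and 0.0273) and gave 0.05 in WT_OL (adjusted p = 0.731). *Ngly1*, which deglycosylates NRF1, fell in KO_OL and KO_RL (-0.28 and -0.30). *Foxo3* rose in all 4 comparisons (0.50 to 0.65), *Nfya* in 3, and *Nfyb*, its partner in NF-Y, fell in all 4 (-0.34 to -0.38).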

How the data were processed

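Poly(A)-selected RNA of 18 hippocampi was sequenced, with 1 mouse per library. The authors mapped the reads to mm10 with STAR 2.5.1, counted them per gene with its count module, scaled them to TMM-normalized CPM with edgeR 3.12.1 under R 3.3.0, and deposited log2 values, per the labels and the methods. The methods state that low CPM were set to 1, but the deposited log2 values behave as log2(CPM + 1): subtracting 1 after taking the antilog gave whole reads for 100% of values within 0.01 reads. The labels and the methods name different kits, and the strand setting of the counting is not given in the sources used here.

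Groups came from the labels. A model with 1 mean per group was fitted to the log2 values of all 18 libraries and all 15329 genes with limma 3.58.1 (R 4.3.3, eBayes with trend, two-sided, no filter) and adjusted by Benjamini-Hochberg, with a threshold of 0.05. Chromosome positions, lengths and GC content were taken from GENCODE M21 (GRCm38). Tables and plots were made with Python 3.11.15, pandas 2.3.3, numpy 2.4.6, scipy 1.17.1 and matplotlib 3.10.9. The fit was tested on simulated data. The members and the lists were chosen with earlier results of these data known. Members were named by rule: up to 5 called members with the smallest p per comparison and the largest change in each direction, fixed sets (catalytic subunits, activators, chaperones, *Psmd14*), the highest and lowest per role, and genes that are no subunits. Other members named with values, such as *Psma3*, *Psma7*, *Psmb1*, *Psmc3*, *Psmc4*, *Psmc5*, *Psmd11* and *Psmd13*, were chosen after their values were seen where this rule does not name them. Alternatives were other pseudocounts, a floor, a filter, other normalizations, GC correction, library weights, voom on the recovered reads, the replicate number as a block and leaving out each mouse, and, added after seeing the data, length corrections.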

Additional observations from a re-analysis of the deposited data

How the results depend on the processing

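The depth of 29248557 to 37915576 reads limits *Psma8* and *Psmb9*, which had 4 to 28 and 19 to 68 reads per library. Library weights raised the number of members called, and of all genes with it: to 28 in KO_RL (49.2% of all genes), 13 in WT_RL (21.9%), 20 in KO_OL (42.1%) and 22 in WT_OL (45.9%) against Basal, to 3 in WT_RL against WT_OL (16.1%), to 24 in KO_OL against WT_OL (44.9%), to 14 for the genotype difference in original learning (25.5%) and 1 for that in reversal against original learning (3.22%), and over both genotypes to 25 (original learning, 51.8%), 29 (reversal learning, 47.8%) and 1 (reversal against original, 13.1%). The estimate of these weights stopped before it had converged. In WT_OL against WT_Basal the 2 calls became 4 with CPM floored at 1, 1 with a pseudocount of 0.25, and 0 in a fit of the compared groups only, with median centring, with GC correction and with voom. WT_RL against WT_Basal gave 2 in a fit of the compared groups only and 2 with GC correction. The length correction gave 17 in KO_OL, 16 in WT_RL, 7 in WT_OL and 1 in WT_RL against WT_OL, and 20 and 26 over both genotypes, where GC correction gave 7 for original learning. GC and length correction gave 9 in KO_RL and 1 in WT_RL against WT_OL. The cause was not tested.

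Replicate numbers did not pair the mice: over 45 pairs with the same number the median correlation of deviations was -0.03 and 12 were over 0.1. Over 90 pairs with different numbers the median was 0.02 and 29 were over 0.1. For 10 of 18 libraries the mean correlation with libraries of their own number was above that with the others. With the replicate block, WT_OL gave 1 call, and with the block and GC correction WT_OL gave 0, WT_RL 3 and original learning over both genotypes 7.

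*Psmc6* reversed with GC correction, also with the replicate block, to 0.17 in WT_OL, 0.069 in KO_OL and 0.13 in WT_RL, and with GC and length correction to 0.18, 0.13 and 0.16 and to 0.072 in KO_RL, where *Psmd14* reversed to 0.048. Without 1 mouse at a time, the number called ranged from 7 to 19 in KO_RL, 2 to 11 in WT_RL, 6 to 12 in KO_OL and 0 to 3 in WT_OL against Basal, from 0 to 2 in WT_RL against WT_OL, from 0 to 6 in KO_OL against WT_OL, and from 10 to 16 and 16 to 24 over both genotypes. The shares of all genes called in these fits are not given here.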
